A study of Sus scrofa with 6 samples.

Results

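S100a8, S100a9, 5 stefins (Stfa2, Stfa2l1, Stfa3, Cstdc4 and Csta2), Retnlg and Asprv1 form a set of 9 genes among the 32285 gene features of the series. The set was matched by symbol, and each symbol had exactly 1 row in every library. The genes were chosen by measured values, namely the high UMI levels of this cluster in earlier results from the same libraries, so their high level in neutrophils is given below as a description and not as a finding. The Ensembl identifiers in the files are ENSMUSG00000056054 for S100a8, ENSMUSG00000056071 for S100a9, ENSMUSG00000022902 for Stfa2, ENSMUSG00000059657 for Stfa2l1, ENSMUSG00000054905 for Stfa3, ENSMUSG00000079597 for Cstdc4, ENSMUSG00000095620 for Csta2, ENSMUSG00000022651 for Retnlg and ENSMUSG00000033508 for Asprv1.

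Single-cell RNA sequencing of unsorted skin cells gave 6 libraries, 1 per label. By the labels, all came from red duroc pigs. Of the labels, 4 name irradiated skin with a 1 mg deferoxamine patch, and deferoxamine is an iron chelator: pretreatment (patch for 2 weeks before radiotherapy), continuous (18 weeks in all), acute (12 weeks of recovery after radiation) and chronic (4 weeks after recovery). The other two are irradiated skin without a named patch and normal skin without treatment. The files go against the pig label, since every gene identifier is a mouse one and 4 libraries carry counts of anti-mouse hashtag antibodies. The title of the series is about another subject, adhesions after surgery and a therapeutic directed at JUN, so whether these files belong to these labels could not be settled. Libraries are named here only as labelled, no difference is ascribed to radiation or to deferoxamine, and with 1 library per label no difference has a replicate check or a test. Animal age, sex and number are not given in the sources used here.

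S100A8 and S100A9 are small calcium-binding proteins that pair as calprotectin, a major cytosolic protein of neutrophils that also binds zinc and manganese and acts as a danger signal once released. Stefins are cytosolic inhibitors of cysteine proteases such as the cathepsins, and mice carry an expanded family of closely related stefin A genes. Stressed or wounded epidermis can also make calprotectin, and epidermal cells use a stefin in the cornified envelope. Retnlg encodes resistin-like gamma, a small secreted protein known in mice from myeloid cells, and Asprv1 encodes a retroviral-like aspartic protease known for processing profilaggrin in the epidermis.

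The libraries held 1811 to 25052 barcodes with 18611144 to 54966435 gene UMIs (unique molecular identifiers, each standing for 1 captured transcript). After filtering, 1477 cells were kept in pretreatment, 8213 in continuous, 21719 in acute, 8466 in chronic, 19911 in irradiated and 15938 in normal. A cell was assigned to a type when it carried at least 3 marker genes of that type and fewer than 3 of every other, and none of the 9 genes was a marker. Neutrophil-gated cells numbered 17 in pretreatment, 2818 in continuous, 3730 in acute, 1789 in chronic, 5220 in irradiated and 3771 in normal, and all 9 neutrophil markers were detected in the gate of every library. The pretreatment value for neutrophils rests on 17 cells and is given without further reading. Levels are CPM, the usual scaling of the UMIs of a gene by all gene UMIs of the gate. As the chemistry counts 3′ ends, CPM is not divided by gene length. Intervals are exact 95% intervals that cover counting error only, not differences between animals or preparations.

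In neutrophil-gated cells, S100a8 and S100a9 together took up a larger part of the RNA in the continuous library than in any other library with over 50 such cells. The S100a8 + S100a9 sum was 136823 CPM in pretreatment, 201707 in continuous, 90328 in acute, 138882 in chronic, 95990 in irradiated and 96703 in normal. Irradiated, acute and normal thus lay close together, chronic stood above them and continuous above chronic. All 9 genes made up 15.0% of neutrophil UMIs in pretreatment, 23.2% in continuous, 11.15% in acute, 15.8% in chronic, 11.6% in irradiated and 11.07% in normal. The order was carried by most cells and not by a few. The median neutrophil spent 19.6% of its UMIs on the pair in continuous, 8.39% in acute, 12.5% in chronic, 9.02% in irradiated and 8.80% in normal. Cells above 10% were 86.7% of neutrophils in continuous, 38.8% in acute, 60.7% in chronic, 42.6% in irradiated and 41.3% in normal. Among those 5 libraries, between 1 and 25 gated cells per library had no UMI of either gene.

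Relative to the library labelled irradiated, the S100a8 + S100a9 ratio was 2.10 (95% interval 2.10 to 2.11) in continuous, 1.45 (1.44 to 1.45) in chronic and 0.941 (0.937 to 0.945) in acute. The ratio of irradiated over normal was 0.993 (0.989 to 0.996). Median depth of neutrophil-gated cells also differed, at 2581 UMIs in continuous, 899 in acute, 1888 in chronic, 1112.5 in irradiated and 1072 in normal. With every cell thinned to 500 UMIs the log2 ratio was 1.05 for continuous and 0.50 for chronic, against 1.07 and 0.53 without thinning. The continuous library also has no antibody counts, unlike irradiated, and the part of that difference in the result was not tested.

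The partners were not in a fixed proportion. S100a8 had 0.821 UMIs per S100a9 UMI in continuous neutrophils, 0.940 in acute, 0.849 in chronic, 0.910 in irradiated and 0.951 in normal. S100a9 had 110777 CPM in continuous against 50247 CPM in irradiated, and S100a8 had 90931 CPM in continuous against 45743 CPM in irradiated. The continuous to irradiated ratio was thus 2.20 for S100a9 and 1.99 for S100a8. In the libraries with the higher sum, continuous and chronic, the proportion of S100a8 was lower.

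**Figure D1:**
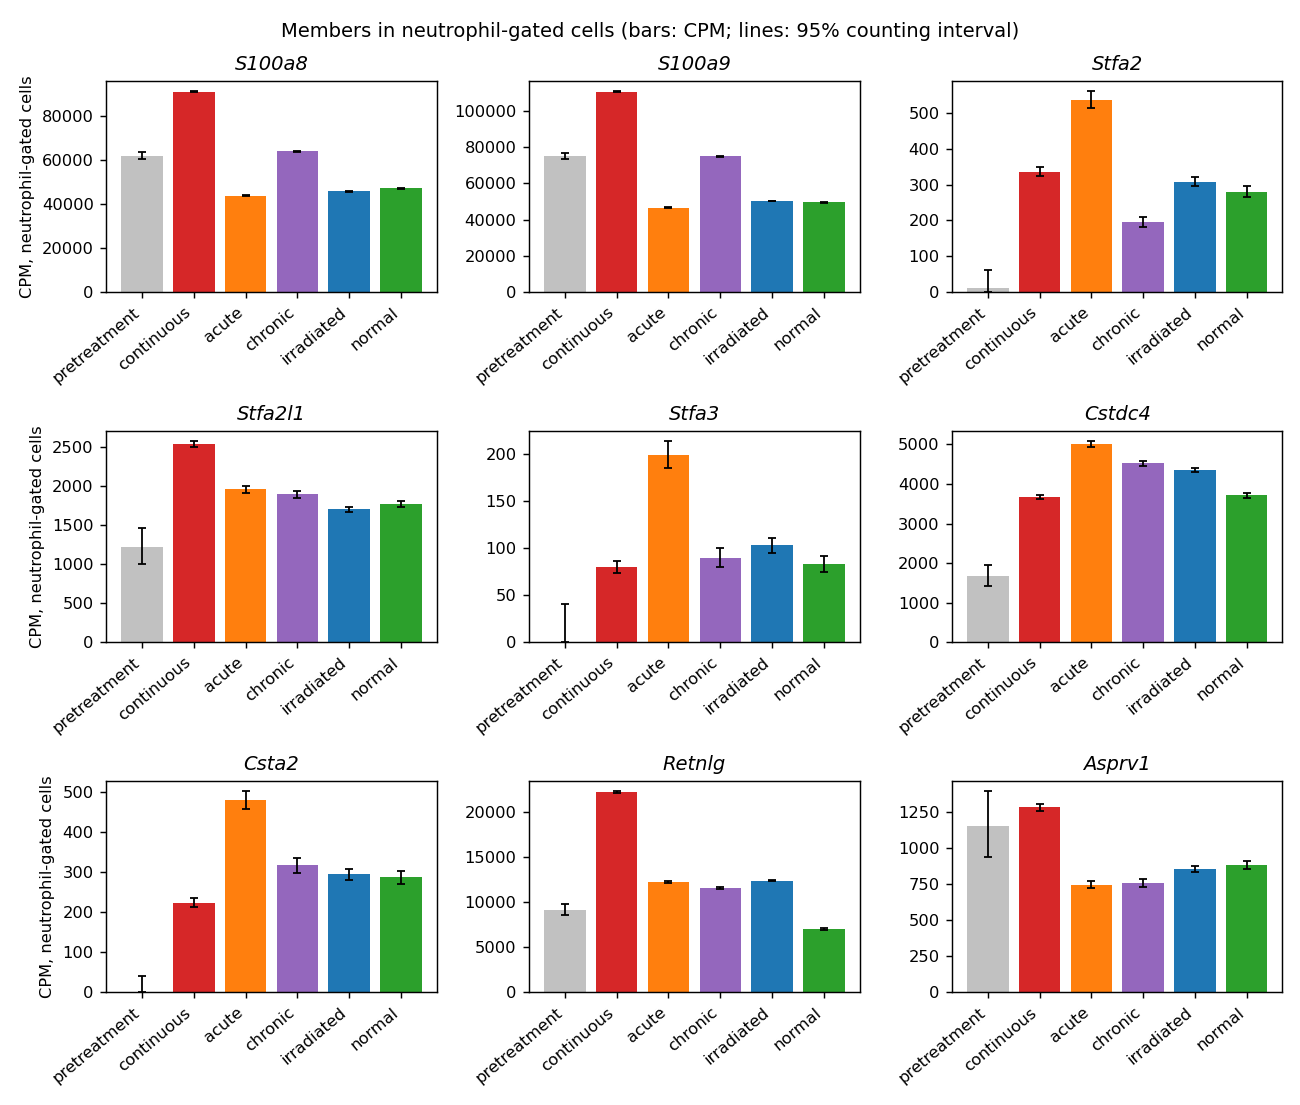
Level of each of the 9 genes (CPM, vertical axes from 0) in neutrophil-gated cells of the 6 libraries; bars are 1 library each, black lines are exact 95% counting intervals, and the pale pretreatment bar rests on 17 cells. S100a8, S100a9 and Retnlg stand highest in continuous, while Stfa2, Stfa3, Cstdc4 and Csta2 stand highest in acute.

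The stefins did not follow S100a8 and S100a9. Their sum in neutrophil-gated cells was 2886 CPM in pretreatment, 6842 in continuous, 8182 in acute, 7016 in chronic, 6745 in irradiated and 6128 in normal. The ratio to irradiated was 1.01 (1.00 to 1.03) in continuous, 1.21 (1.20 to 1.23) in acute and 1.04 (1.02 to 1.06) in chronic, and irradiated over normal was 1.10 (1.08 to 1.12). In continuous, then, the calprotectin pair was far above its irradiated level in CPM while the stefin sum lay almost at it. The 9 genes are themselves part of the CPM denominator. Without them in it, the log2 ratio of continuous over irradiated was 0.22 for the stefin sum and 1.27 for the pair.

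Cstdc4 and Stfa2l1 supplied most of this stefin RNA. Cstdc4 gave 53.6% of stefin UMIs in continuous neutrophils, 61.3% in acute, 64.5% in chronic, 64.4% in irradiated and 60.6% in normal. Stfa2l1 gave 37.0% in continuous, 23.9% in acute, 27.0% in chronic, 25.2% in irradiated and 28.8% in normal. The continuous library therefore had a different mix. Its Stfa2l1 level was 2532 CPM against 1697 CPM in irradiated (ratio 1.49, 1.46 to 1.53), and its Cstdc4 level was 3671 CPM against 4343 CPM in irradiated (ratio 0.845, 0.831 to 0.859).

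Stfa2, Stfa3 and Csta2 are the minor stefins of neutrophils. Stfa2 had 336 CPM in continuous, 537 in acute, 194 in chronic, 308 in irradiated and 280.2 in normal. Stfa3 had 80.0 CPM in continuous, 199 in acute, 89.5 in chronic, 103 in irradiated and 82.7 in normal. Csta2 had 224 CPM in continuous, 479 in acute, 317 in chronic, 294 in irradiated and 287 in normal. All of these genes were highest in acute, at 1.74, 1.94 and 1.63 times the irradiated level for Stfa2, Stfa3 and Csta2. Stefin genes resemble each other closely, and how reads that match several of them were counted is not given in the sources used here, so the split between them is uncertain.

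Retnlg was farther apart between irradiated and normal neutrophils than the S100 pair was. Its level was 22130 CPM in continuous, 12234 in acute, 11488 in chronic, 12371 in irradiated and 6991 in normal. Normal was the lowest of these 5 libraries over all gated neutrophils. The ratio was 1.79 (1.77 to 1.80) for continuous over irradiated and 1.77 (1.75 to 1.79) for irradiated over normal. Asprv1 had 1278 CPM in continuous, 745 in acute, 755 in chronic, 852 in irradiated and 877 in normal, which placed continuous apart from the other 4.

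Set against all genes, these counts read as follows. In irradiated over normal, 1 of the 9 genes (Retnlg) was at least 1.5-fold higher and none was at least 1.5-fold lower, where 5.38% and 12.3% of the 5258 genes with at least 100 UMIs over both libraries were. In continuous over irradiated, 4 of 9 (S100a8, S100a9, Retnlg and Asprv1) were higher and none lower, against 8.78% and 32.8% of all genes. The median log2 ratio there was 0.58 over the 9 genes and −0.28 over all 5237 genes tested. Asprv1 at 1.501 and Stfa2l1 at 1.49 lay just inside and just outside the 1.5-fold line.

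In acute over irradiated, 3 of 9 (Stfa2, Stfa3 and Csta2) were higher and none lower, against 10.1% and 1.91% of all genes, and the medians were 0.20 for the 9 genes and 0.21 for all genes. In chronic over irradiated, none of 9 was higher and 1 (Stfa2, 1.59-fold lower) was lower, against 9.51% and 16.1% of all genes. S100a9 in chronic, at 1.49 times irradiated, was just short of the line. In pretreatment over irradiated, none of 9 was higher and 4 were lower, against 30.5% and 34.6% of all genes, so the share of genes past the line was large throughout in those 17 cells. All patch comparisons share the irradiated library.

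**Figure D2:**
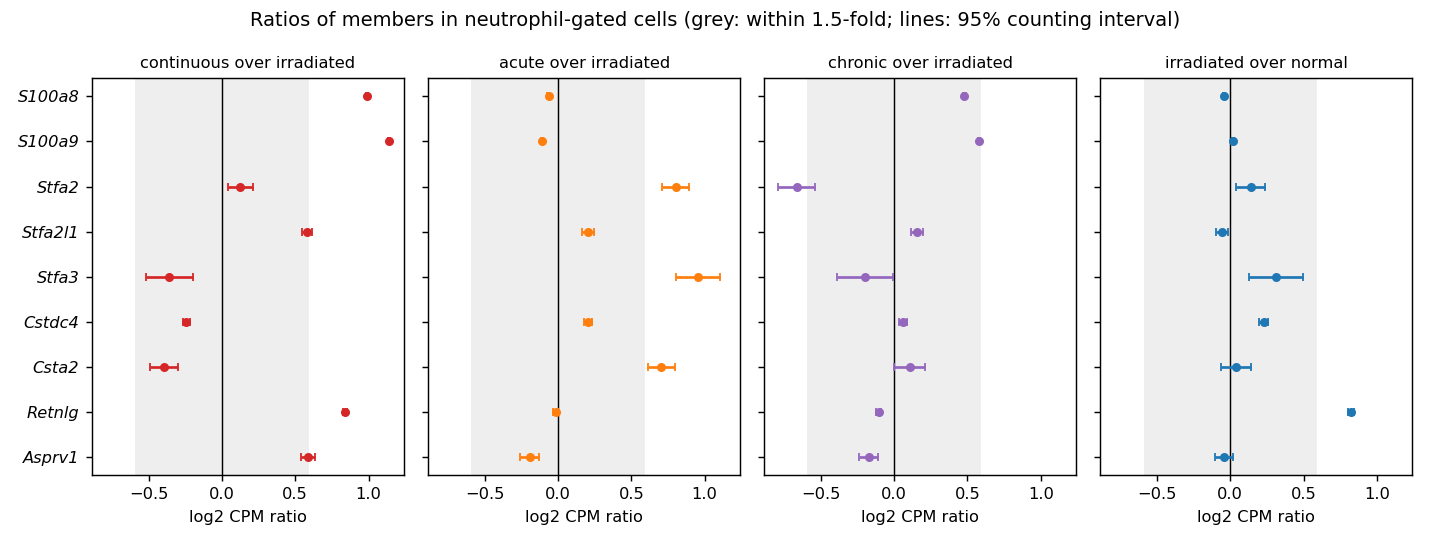
Log2 ratio of CPM in neutrophil-gated cells for the 9 genes in 4 comparisons (horizontal axes); points are ratios of 1 library over another, lines are exact 95% counting intervals and the grey band marks less than 1.5-fold. S100a8, S100a9 and Retnlg lie to the right of the band in continuous over irradiated, Stfa2, Stfa3 and Csta2 in acute over irradiated, and Retnlg alone in irradiated over normal.

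Neutrophils were then divided by granule RNA (at least 2 of Camp, Ltf, Ngp, Mmp8, Lcn2 and Chil3) and by chemokine or cytokine RNA (at least 2 of Ccl3, Ccl4 and Il1a). Granule genes are made early in neutrophil maturation, whereas the chemokines mark activated cells. Between 39.4% and 61.5% of neutrophils in the 5 larger libraries carried both kinds, and cells with granule RNA only were 259 in continuous, 161 in acute, 217 in chronic, 91 in irradiated and 174 in normal. The S100a8 + S100a9 sum was higher in cells with granule RNA only than in cells with chemokine RNA only in all 5 libraries. It came to 230822 CPM in granule cells against 150589 CPM in chemokine cells of continuous, to 202267 against 95147 CPM in chronic, and to 116856 against 76364 CPM in irradiated. Values for acute and normal had the same order. Cells with both kinds lay between granule and chemokine cells in all 5 libraries. Cells with neither kind lay below chemokine cells except in chronic, where they had 128246 CPM and so stood above them.

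Retnlg showed the same order in all 5 libraries. It had 12166 CPM in granule cells against 8925 CPM in chemokine cells of acute, 20843 CPM in granule cells against 4937 CPM in chemokine cells of chronic, and 14991 against 4214 CPM in normal. Irradiated had 13579 against 7692 CPM. Normal was thus lowest for Retnlg in chemokine cells, but in granule cells it stood above irradiated and acute. Cstdc4 had the opposite order in all 5 libraries, with 2933 CPM in granule cells against 4353 CPM in chemokine cells of continuous and 2971 against 4709 CPM in chronic. Granule and chemokine cells differed little in median depth, which was 2421 against 2053 UMIs in continuous and 893 against 970.5 UMIs in irradiated. Among these 5 libraries, continuous was highest in the S100 sum within both kinds of cell.

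**Figure D3:**
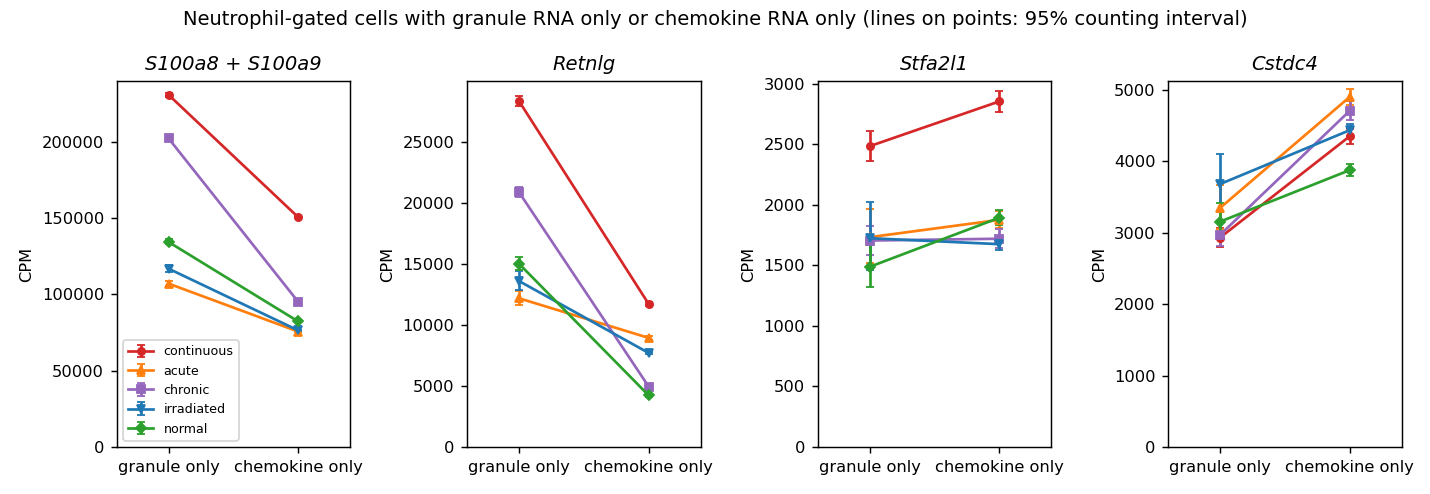
CPM (vertical axes from 0) of S100a8 + S100a9, Retnlg, Stfa2l1 and Cstdc4 in neutrophil-gated cells that carry granule RNA only (left) or chemokine RNA only (right); each line joins the 2 kinds of cell within 1 of 5 libraries and the bars on the points are exact 95% counting intervals. The S100 sum and Retnlg slope down from granule to chemokine cells in every library, and Cstdc4 slopes up.

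Outside neutrophils, S100a9 was found in every gate of the 5 larger libraries, so free RNA has to be considered. In pretreatment it was at 0 in the dendritic, B, mast, mural, Schwann and monocyte gates, which held 1 to 16 cells each. Unthinned, 85.6% of fibroblasts in continuous, 59.1% in acute, 60.5% in chronic, 71.0% in irradiated and 71.0% in normal had an S100a9 UMI, although fibroblasts are not known as a source. In T or natural killer cells, also not known as a source, the shares were 71.3%, 46.8%, 46.8%, 58.0% and 56.3% in the same libraries. Fibroblasts were deeper, with median depths of 7895 UMIs in continuous and 3326 in irradiated, against 2638 and 1344 UMIs in T or natural killer cells. Thinned to 500 UMIs, S100a9 was in 20.9% of fibroblasts and 21.6% of T or natural killer cells in continuous, and in 27.3% and 29.1% in irradiated. Pretreatment, with its 17 gated neutrophils, had S100a9 in 2.52% of fibroblasts and 1.16% of T or natural killer cells. The part of free RNA in these shares was not tested, and the levels below are set beside them.

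The fibroblast level itself was low beside that of neutrophils. S100a8 + S100a9 in fibroblasts was 519 CPM in continuous, 1329 in acute, 316 in chronic, 1427 in irradiated and 2160.4 in normal. That is 0.257%, 1.47%, 0.228%, 1.49% and 2.23% of the neutrophil level of the same library. In pretreatment it was 5.58 CPM. Fibroblasts had Retnlg at 14.4 UMIs per 100 S100a9 UMIs in continuous, where neutrophils had 20.0, and at 18.5 in irradiated, where neutrophils had 24.6. The proportions were farther apart in chronic, at 4.84 in fibroblasts and 15.3 in neutrophils, and in normal, at 5.81 in fibroblasts and 14.1 in neutrophils.

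Stfa3 was the exception among the 9 genes, since keratinocytes and not neutrophils held its highest level. Keratinocyte-gated cells, recognised by keratins and desmosomal genes, had 434 CPM in pretreatment, 547 in continuous, 1782 in acute, 1735 in chronic, 682 in irradiated and 1540 in normal. Neutrophil-gated cells had 0, 80.0, 199, 89.5, 103 and 82.7 CPM in the same libraries. The keratinocyte level of Stfa3 was 6.83 times the neutrophil level in continuous, 8.96 times in acute and 19.4 times in chronic. It was 6.64 times in irradiated and 18.6 times in normal. The share of all genes that differ as much between these gates is not given here. This Stfa3 pattern was found after the values had been seen. The gates held 55 keratinocytes in pretreatment, 279 in continuous, 165 in acute, 269 in chronic, 169 in irradiated and 145 in normal.

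At a fixed 500 UMIs, Stfa3 was detected in 12.2% of keratinocytes in continuous, 27.3% in acute, 27.5% in chronic, 20.1% in irradiated and 26.9% in normal. Fibroblasts had Stfa3 in 0.522%, 0.878%, 0%, 0.758% and 0.542% at the same depth, where the 0% in chronic has an upper bound of 1.43%. Unthinned the Stfa3 share was 41.6% of keratinocytes in chronic, at a median of 5072 UMIs, against 1.95% of fibroblasts at a median of 6963.5 UMIs. Stfa3 RNA was unevenly spread over keratinocytes. The 5 highest cells held 53.9% of Stfa3 UMIs in continuous, 37.5% in acute, 28.4% in chronic, 45.6% in irradiated and 48.9% in normal. In pretreatment 5 of 55 keratinocytes held all 184 UMIs. Without those 5 cells the Stfa3 level was 257 CPM in continuous, 1237 in acute, 1354 in chronic, 389 in irradiated and 852 in normal, still above the neutrophil level in each.

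Pretreatment separates Stfa3 from S100a9 most plainly. Its keratinocytes had 434 CPM of Stfa3 beside 7.08 CPM of S100a9, and no UMI of Stfa2, Stfa2l1, Cstdc4 or Csta2, which allows up to 8.71 CPM of each. In the other libraries keratinocytes had between 22.1 and 45.2 Stfa3 UMIs per 100 S100a9 UMIs, where neutrophils had between 0.0722 and 0.427. The family members Stfa1 and Cstdc5, taken from a list of other stefins and cystatins, were also higher in keratinocytes of the libraries named next. Keratinocyte levels of the other listed genes are not given here. Cstdc5 had 2196 CPM in keratinocytes against 435 in neutrophils of acute. It had 345 against 87.5 in pretreatment, where the neutrophil value rests on 17 cells. Stfa1 had 994 CPM in keratinocytes against 185 in neutrophils of normal.

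**Figure D4:**
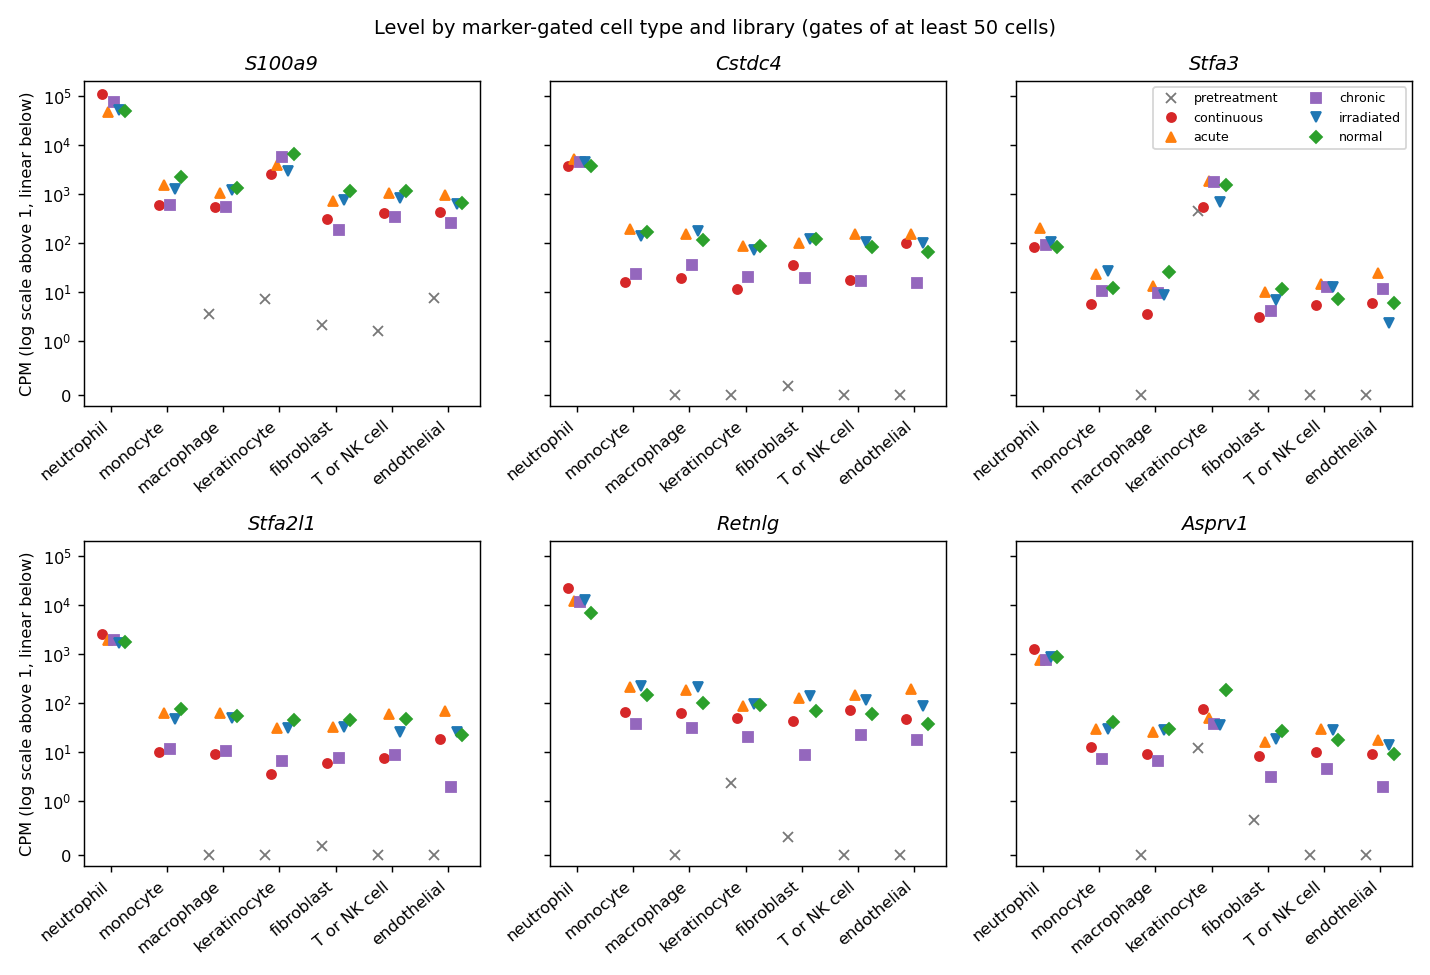
CPM of 6 of the 9 genes by marker-gated cell type (horizontal axis) and library (symbols); the vertical axis is logarithmic above 1 and linear below, and gates under 50 cells are left out, which removes pretreatment neutrophils and monocytes. In the other 5 libraries all plotted genes but Stfa3 are highest in neutrophils, and Stfa3 is highest in keratinocytes of every library.

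Among gates of at least 50 cells other than neutrophils, S100a8 + S100a9 was highest in keratinocytes, although in pretreatment this rests on 7 UMIs. Of the smaller gates, 11 mast cells of acute had more, at 17943 CPM. Their sum was 16.5 CPM in pretreatment, 4939 in continuous, 7898 in acute, 11148 in chronic, 5869 in irradiated and 13302 in normal. Relative to neutrophils of the same library this was 2.45% in continuous, 8.74% in acute, 8.03% in chronic, 6.11% in irradiated and 13.8% in normal. The summed neutrophil marker list, counted in the same keratinocytes, was at 1.34%, 2.77%, 2.08%, 2.63% and 3.58% of its neutrophil level. The S100 pair thus stood higher than the neutrophil markers did in each of these 5 libraries, while in fibroblasts it stood lower. The list is a rough gauge of neutrophil RNA. In pretreatment fibroblasts it had 2722 UMIs, with Cxcr2, Mmp9, Ly6g and Trem1 at 0, beside 34 UMIs of the pair. How much of the list's RNA was made by fibroblasts or keratinocytes was not tested.

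Retnlg gave the same contrast. Keratinocytes had 2.00 Retnlg UMIs per 100 S100a9 UMIs in continuous, 2.21 in acute, 0.366 in chronic, 3.24 in irradiated and 1.402 in normal. Neutrophils had 20.0, 26.3, 15.3, 24.6 and 14.1. Cstdc4 was likewise low, at 0.459 per 100 S100a9 UMIs in keratinocytes of continuous and 1.33 in normal, against 3.31 and 7.49 in neutrophils. With 1 marker more required, the keratinocyte levels of Retnlg in acute and Cstdc4 in normal moved by over 1.5 times. The proportions in keratinocytes differed from those in neutrophils, as some proportions in fibroblasts did too, and the part of free RNA in the keratinocyte level was not tested.

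The S100 RNA of keratinocytes was concentrated in few cells. The 5 highest cells held 37.5% of S100a8 + S100a9 UMIs in continuous, 31.8% in acute, 40.3% in chronic, 28.4% in irradiated and 58.0% in normal. Without these cells the sum was 3236 CPM in continuous, 6069 in acute, 7229 in chronic, 4380 in irradiated and 5964 in normal. The median keratinocyte spent 0.0789% of its UMIs on the pair in continuous, 0.136% in acute, 0.0946% in chronic, 0.140% in irradiated and 0.1196% in normal. Median fibroblasts spent 0.0509%, 0.0480%, 0.0211%, 0.0609% and 0.0666%. Among keratinocytes, the cells with more differentiation markers (Krt1, Krt10, Dsg1a, Sbsn and Krtdap) than basal markers had more of the pair, at 12307 CPM against 4018 CPM in the remaining keratinocytes of continuous, 43607 against 6361 CPM in chronic and 71150 against 8255 CPM in normal. The order was the same in acute, at 30340.5 against 7092 CPM, and in irradiated, at 18418 against 5204 CPM. The groups held 36 differentiating cells in continuous, 10 in acute, 38 in chronic, 10 in irradiated and 13 in normal, and few of them carried the difference. The 5 highest differentiating cells held 70.3% of the pair in continuous, 85.2% in acute, 73.7% in chronic, 96.9% in irradiated and 96.9% in normal. Without the 5 highest cells of each group, differentiating cells had 4756 CPM against 2265 CPM in the remaining keratinocytes of continuous, 12989 against 5099.5 CPM in acute and 20811 against 4074 CPM in chronic. In normal they then had 5155 against 4379 CPM, and in irradiated the order turned, at 1266 against 3698 CPM.

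Asprv1, despite its epidermal role, was highest in neutrophils in the 5 libraries with over 50 of them. Keratinocytes had 11.8 CPM in pretreatment, 75.7 in continuous, 49.6 in acute, 36.9 in chronic, 35.9 in irradiated and 184 in normal. In continuous and normal most of the keratinocyte RNA of Asprv1 came from a single cell. One cell held 82 of 153 UMIs in continuous and one held 55 of 79 in normal, and both were among the differentiating keratinocytes. Of the epidermal barrier genes listed as partners, Flg (profilaggrin) had 60.7 CPM and Lor (loricrin) 208 CPM in keratinocytes of normal, whereas Flg was at or below 0.495 CPM in keratinocytes of the other libraries.

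Monocytes carried the calprotectin pair in a different proportion. In monocyte-gated cells, S100a8 had 155 UMIs per 100 S100a9 UMIs in continuous (95% interval 137 to 176), 150 in acute (143 to 157), 222 in chronic (200.01 to 247), 133 in irradiated (125 to 141) and 152 in normal (144 to 161). In neutrophils S100a8 had 82.1, 94.0, 84.9, 91.0 and 95.1. S100a8 exceeded S100a9 in monocytes of all 5 libraries and was below it in neutrophils of all 5. Macrophages without monocyte markers had 71.7, 97.7, 79.8, 86.7 and 100.5, and so lay near neutrophils.

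The monocyte level was low. S100a8 + S100a9 had 1510 CPM in continuous, 3777 in acute, 1909 in chronic, 2873 in irradiated and 5551 in normal. The 5 highest of 253 monocytes in chronic held 57.3% of these UMIs, and the share was between 11.8% and 40.3% in the other 4 libraries. Without the 5 highest cells, S100a8 per 100 S100a9 was 112 in continuous, 157 in acute, 138 in chronic, 139 in irradiated and 144 in normal. Keratinocytes without their 5 highest cells had 104, 98.8, 103, 110 and 98.6 in the same libraries. They thus lay between neutrophils and monocytes, so a proportion above that of neutrophils was not particular to monocytes. Neutrophil markers in monocyte-gated cells ranged from 7.23% to 11.8% of the neutrophil marker list's level in neutrophils, and their part in the S100 level of monocytes was not tested. Pretreatment had 4 monocyte-gated cells and no UMI of S100a8 or S100a9 in them.

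Csta2 departed from the neutrophil proportion in fibroblasts, and not in fibroblasts alone. It had 10.1 UMIs per 100 S100a9 UMIs in fibroblasts of continuous, 7.63 in acute, 3.99 in chronic, 6.43 in irradiated and 3.02 in normal. In neutrophils Csta2 had 0.202, 1.03, 0.422, 0.586 and 0.579. The fibroblast counts of Csta2 were 97, 242, 14, 213 and 238 UMIs, and in continuous 5 of 383 cells held 91.8% of them. In pretreatment fibroblasts no Csta2 UMI was found, whereas 10 Csta2 UMIs were found in the 15 dendritic cells gated there. In irradiated, dendritic cells held 0.378% of the Csta2 UMIs of kept cells (15 UMIs) and 0.0207% of those of S100a9. Fibroblasts there held 5.37% and 0.585%. Endothelial cells held 1.03% and 0.0269% in continuous, but 0% of Csta2 in chronic.

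**Figure D5:**
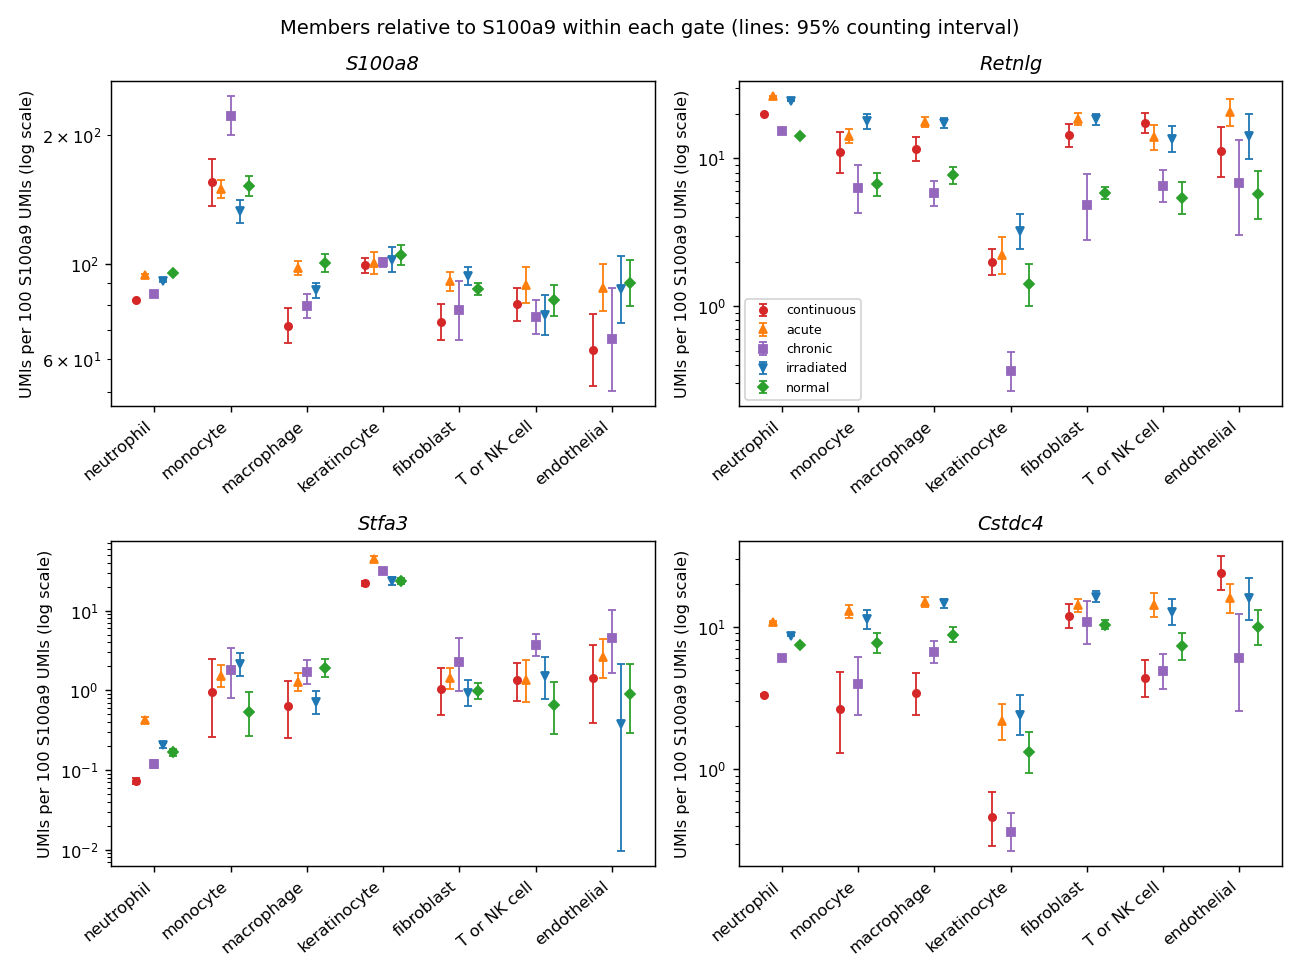
UMIs of S100a8, Retnlg, Stfa3 and Cstdc4 per 100 UMIs of S100a9 (logarithmic vertical axes) within each marker gate of 5 libraries, with exact 95% counting intervals; gates under 50 cells are left out. S100a8 is raised in monocytes, Retnlg and Cstdc4 are lowest in keratinocytes, and Stfa3 is highest in keratinocytes.

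Other members of the same families were read from lists, in neutrophil-gated cells. Of 15 other S100 genes, 8 could be tested in continuous over irradiated, where 1 was at least 1.5-fold higher and 4 were lower, against 8.78% and 32.8% of all genes. Their median log2 ratio was −0.21. S100a11 was the higher one, with 4587 CPM in continuous against 1550 CPM in irradiated. Of the other stefins and cystatins, 9 of 13 listed symbols matched. In continuous over irradiated 3 of 6 tested were higher and none lower, against 8.78% and 32.8% of all genes. In acute over irradiated 3 of 5 were higher and none lower, against 10.1% and 1.91%, and in chronic over irradiated 2 of 5 were higher and none lower, against 9.51% and 16.1%. In irradiated over normal none of 5 was higher and 2 were lower, against 5.38% and 12.3%. Stfa1 led in acute over irradiated, at a log2 ratio of 0.92, with 334 CPM in acute against 176 CPM in irradiated.

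Cathepsins are the proteases that stefins inhibit, although the list also held Ctsd (an aspartic protease) and Ctsa (a serine carboxypeptidase). In continuous over irradiated, 5 of 9 tested were at least 1.5-fold lower and none higher, where 32.8% of all genes were lower and 8.78% higher. The median log2 ratio of the cathepsins was −0.66, and Ctsc, which activates neutrophil serine proteases, was lowest at −1.32. In acute over irradiated 1 of 9 was higher and none lower (10.1% and 1.91% of all genes). In chronic over irradiated none was higher and 2 lower (9.51% and 16.1%). In irradiated over normal none was higher and 2 lower (5.38% and 12.3%). Of the receptors and partners of calprotectin, 2 of 7 tested were higher and 2 lower in irradiated over normal, where 5.38% and 12.3% of all genes were. In continuous over irradiated 1 of 8 was higher and 2 were lower (8.78% and 32.8% of all genes), in acute over irradiated 1 of 7 was higher and none lower (10.1% and 1.91%), and in chronic over irradiated 1 of 7 was higher and 1 lower (9.51% and 16.1%). In irradiated over normal Tlr4 was highest at a log2 ratio of 0.68, and its co-receptor Ly96 was lowest at −1.09.

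Genes with a like pattern were sought over 38 pairs of cell type and library by Pearson correlation of log2(CPM + 10), as a description across pairs that share libraries and cell types. S100a8 and S100a9 had r = 0.998 with each other. Besides the 9 genes, the S100a8 + S100a9 sum was most like Il1f9 (interleukin 36 gamma, r = 0.876), Hcar2 (a niacin receptor, 0.874), Slpi (a leukocyte protease inhibitor, 0.873), Wfdc21 (0.865) and Acod1 (the itaconate-producing enzyme, 0.857). The stefin sum was most like Chil1 (0.903), Ankrd22 (0.896), Il1f9 (0.890), Hcar2 (0.874) and Rdh12 (0.871). Retnlg was most like G0s2 (0.961), Rab44 (0.953), Fpr1 (0.951), Mrgpra2b (0.944) and Hcar2 (0.944), and Asprv1 most like Il1f9 (0.958), Hcar2 (0.956), Ankrd22 (0.949), Rdh12 (0.942) and Cxcr2 (0.928). G0s2 and Cxcr2 are markers of the neutrophil gate. Stfa3 stood apart here too, with r between 0.159 and 0.425 with the other stefins, whereas those had r between 0.827 and 0.981 among themselves.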

How the data were processed

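Skin cells were profiled with the 10x Chromium 3′ chemistry, per the labels' protocols. Per the submitters' processing notes, the authors used Cell Ranger and Seurat 5.0.1 and named the assembly Sscrofa11.1. What they deposited are raw UMI counts of every gene in each barcode. Cell Ranger 6.0.0 stands in the file headers. Their gene identifiers are mouse, and the mouse build is not given in the sources used here, so no sequence or position is printed. Depth per library is 18611144 to 54966435 gene UMIs. Between 3 and 153 barcodes were shared by any 2 libraries.

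A barcode was kept if it had 500 UMIs or more, 300 genes or more and no more than 20% of its UMIs from mitochondrial genes. Doublet scores came from Scrublet in scanpy 1.11.5, and the highest-scoring cells were removed at 0.8% per 1000 barcodes up to 10% (1.47% to 10.0% removed). Scrublet's own threshold marked 0%, 0%, 0.0109%, 0.334%, 2.05% and 22.0% of cells in normal, acute, chronic, pretreatment, continuous and irradiated. It was used first where it marked at least 0.5%, and was replaced by the uniform rate after neutrophil values from it had been seen. It is given as an added alternative.

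Cells were gated by at least 3 markers of a type. Macrophage and monocyte lists were joined and then split, as were basal and differentiating keratinocytes, T and natural killer lists were joined, and cells passing for several types (13.9% to 23.7%) or none (7.63% to 24.2%) were left out. The marker number and the joining were chosen after gate sizes and the levels of the 9 genes per library had been seen. Cells of several types held 17.6% to 34.2% of the S100a8 + S100a9 UMIs of kept cells.

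UMIs were summed per gate and library (Python 3.11.15, numpy 2.4.6, scipy 1.17.1, pandas 2.3.3) and scaled to CPM. Sums carry exact Poisson intervals, shares Clopper-Pearson intervals, and ratios exact conditional binomial intervals, all at 95%. Ratio intervals were tested on simulated Poisson counts of whole-library sums, so that check covers counting error only. No p-value was computed, as each label has 1 library. Irradiated was set over normal, and every patch schedule over irradiated. A gene counted as past the line at 1.5-fold, among genes with at least 100 UMIs over both sums. The members and lists were chosen with earlier results of these data known. All 9 genes are named. The genes most like them are the 5 with the highest correlation and at least 1000 UMIs, and from lists the highest, the lowest and those a result turns on are named. Alternatives were 1 marker more, at least 1000 UMIs per cell, doublets kept, a CPM denominator without the 9 genes, thinning to 500 UMIs, all kept cells, and at least 20 UMIs over both sums.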

Additional observations from a re-analysis of the deposited data

How the results depend on the processing

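No paired analysis was possible because each label has 1 library. Leaving out a replicate was not possible for the same reason. Values below are log2 ratios of CPM. Of 90 planned comparisons of a value with its alternative, 55 moved past the counting interval of the value and 35 did not, and of 10 with the added doublet rule 9 moved. Counting intervals are narrow at these depths, so small shifts count as moved.

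The S100a8 + S100a9 ratio in neutrophils was 1.07 in continuous, −0.09 in acute, 0.53 in chronic and 0.51 in pretreatment over irradiated, and −0.01 in irradiated over normal. In the same order it was −0.10 in acute, 0.62 in chronic, 0.72 in pretreatment and −0.15 in irradiated over normal with 1 marker more, 1.00, −0.079, 0.47, 0.45 and 0.0054 with at least 1000 UMIs per cell, and 1.27, −0.095, 0.60, 0.57 and −0.0021 without the 9 genes in the denominator. Thinned cells gave 1.05, −0.056, 0.50, 0.36 and −0.022, and doublets kept gave 1.10, 0.55 (chronic), 0.55 (pretreatment) and −0.0037 (irradiated over normal). Scrublet's own threshold, added after values had been seen, gave 1.03, −0.12, 0.50, 0.48 and 0.022. All kept cells gave 1.20, −0.54, −0.067, −4.53 and −0.060, so chronic and pretreatment changed sign there. That population holds 1.15% to 34.3% neutrophils by library.

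The stefin sum was 0.02 in continuous, 0.28 in acute, 0.06 in chronic and −1.22 in pretreatment over irradiated, and 0.14 in irradiated over normal. It moved to 0.060, 0.30, 0.15 and (irradiated over normal) 0.11 with 1 marker more, and to 0.22 (continuous) and 0.13 (chronic) without the 9 genes. Thinning gave 0.25 in acute, −0.0049 in chronic and −1.41 in pretreatment, and doublets kept gave 0.049 in continuous. Scrublet's own threshold gave −0.011, 0.25, 0.029 and (irradiated over normal) 0.17. All kept cells gave 0.078, −0.13, −0.44, −5.68 and 0.084, so acute and chronic changed sign there.

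In keratinocytes over neutrophils, rows chosen after their values had been seen, S100a9 moved with 1 marker more to −5.67 in continuous, −3.38 in acute, −3.84 in chronic, −4.42 in irradiated and −3.50 in normal, against −5.48, −3.56, −3.76, −4.11 and −2.93. Stfa3 moved to 3.07 in continuous, 3.67 in chronic and 4.03 in normal, and to 2.96 in continuous with doublets kept, against 2.77, 4.28 and 4.22. With at least 20 UMIs over both sums, the share of all genes at least 1.5-fold higher was 8.52% in irradiated over normal and 19.7% in acute over irradiated, where 3.58% were lower. Of 210 levels by gate, 9 moved over 1.5 times with 1 marker more, among them Retnlg and Asprv1 in acute and Cstdc4 in normal keratinocytes. Of 214 levels, 3 moved that far with doublets kept, among them Retnlg in acute keratinocytes, and 0 with Scrublet's own threshold. The 17 pretreatment neutrophils and the 10 to 38 differentiating keratinocytes of the other libraries are few cells, whatever their depth.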

Other observations

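Acute, chronic, irradiated and normal carried counts of 4 anti-mouse hashtag antibodies, with 22083108 to 41181650 antibody UMIs each. No label ties a tag to an animal. Tags were assigned to neutrophil-gated cells with at least 10 antibody UMIs of which at least 67% came from 1 tag. In normal, 98.0% of neutrophils were assigned to HashTag7, and their S100a8 + S100a9 level was 97203 CPM. In chronic, 5.37% (96 cells) were assigned to HashTag8, with 87949 CPM. That was below the level over all chronic neutrophils given above, and below that of irradiated neutrophils. Retnlg in these 96 cells, at 4762 CPM, was also below its level over all chronic neutrophils. No tag took more than 0.785% of neutrophils in irradiated or in acute, so the values of the 9 genes could not be divided by tag in these libraries under this rule.

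Erythroid RNA was found in the neutrophil gate. Alas2, Hbb-bs, Hbb-bt, Hba-a1 and Hba-a2 together had 65.6 CPM in pretreatment, 5612 in continuous, 3214 in acute, 2257 in chronic, 4942 in irradiated and 4336 in normal. Fibroblast markers there summed to 218 CPM in continuous, 909 in acute, 138 in chronic, 735 in irradiated and 1039 in normal. Macrophage markers had 135, 648, 256, 515 and 395 CPM in the same libraries. Among these libraries both lists were lowest in continuous and chronic, where the S100a8 + S100a9 sum was highest. Keratinocyte markers had another order, at 112, 138, 93.1, 128 and 93.9 CPM. The part of such RNA in the levels of the 9 genes was not tested. Cells that passed for no type had S100a8 + S100a9 at 271 CPM in pretreatment, 3034 in continuous, 13526 in acute, 11541 in chronic, 14665.5 in irradiated and 25599 in normal.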
